A study of Mus musculus with 10 samples.

Results

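The 9 genes followed in the RNA-seq libraries of this series mark mouse embryonic stem cells: Dppa2, Dppa3, Dppa4, Dppa5a, Utf1, L1td1, Zfp42, Fbxo15 and Gdf3. They were chosen by name, as the Ensembl genes that carry these 9 symbols in the GENCODE annotation, from 55487 genes in the deposited tables. All 9 were found. The cells were E14, an established line of mouse embryonic stem cells, unperturbed, with 3 RNA-seq replicates as the only group used. Per the labels' protocols they grew in medium with 15% fetal bovine serum, LIF, 3 µM of a GSK inhibitor and 1 µM of a MEK1/2 inhibitor. The 7 R-loop samples of the series were not analysed here. Nothing in the labels says whether the replicates came from separate cultures, so the spread between them may be technical.

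Dppa stands for developmental pluripotency associated, a name given to genes whose transcripts are found in pluripotent cells and the germ line and not in most somatic tissue. Dppa2 and Dppa4 are DNA-binding paralogs of the SAP domain family that bind each other and act at promoters of early embryonic genes. Dppa3 and Dppa5a carry the same prefix, which refers to expression. Whether their proteins are related in sequence was not examined here. Zfp42, also called Rex1, is widely used to mark the naive state of stem cells. Fbxo15 was the locus of the reporter used in the first reprogramming of fibroblasts to pluripotency. Several of the others (Utf1, L1td1, Gdf3) came from screens for transcripts enriched in embryonic stem cells.

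The 9 genes covered a wide range of levels in the same cells. Dppa5a was highest at 554 ± 77.9 TPM (SD, n = 3) and Dppa3 lowest at 0.47 ± 0.062 TPM (SD, n = 3), a difference of 10.2 ± 0.21 on the log2 scale (SD, n = 3). TPM is the authors' transcript abundance per effective length, scaled to the same total in each library. For 8 of the 9 genes the mean was 1 TPM or more, as it was for 19.8% of all genes and 44.1% of protein-coding genes. Dppa3 was the exception in TPM as deposited, and passed 1 where short genes were left out of the denominator (1.30), where protein-coding genes alone were in it (2.84) and per kilobase of full length (1.04). The median of the 9 was 4.32 ± 0.32 in log2(TPM + 1) (SD, n = 3), and that of all 9683 protein-coding genes with a mean TPM of at least 1 was 2.72 ± 0.29 (SD, n = 3). No test was made of this difference, since the genes were chosen as stem cell markers.

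The libraries held 5787357 to 11420425 estimated counts, so 3 counts, taken as the floor of detection, correspond to 0.263 to 0.518 CPM, which divides counts by library size and ignores gene length. Genes of effective length under 100 nt held 60.3% to 65.8% of all TPM. TPM values of the 9 genes are therefore lower than on a scale without such short genes. With these left out of the denominator, expressed genes as a whole were higher by 1.45 (log2, median). With protein-coding genes of the nuclear chromosomes alone in it, expressed genes were higher by 2.58 (log2, median). The stem cell identity of the libraries was checked with markers. All 8 pluripotency regulators of the list reached a mean TPM of at least 1, from 3.44 TPM for Prdm14 to 183 TPM for Nanog. The 6 fibroblast genes, which would mark a feeder layer, summed to between 0.05 and 0.13 TPM per library, and Col3a1, Dcn, Lum and Postn had 0 counts. The 9 lineage genes (Gata4, Gata6, Sox17, T, Eomes, Cdx2, Pax6, Sox1, Foxa2) summed to between 1.66 and 2.88 TPM, with none at a mean TPM of 1. Without replicate 3, 1 of the 9 reached it.

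**Figure D1:**
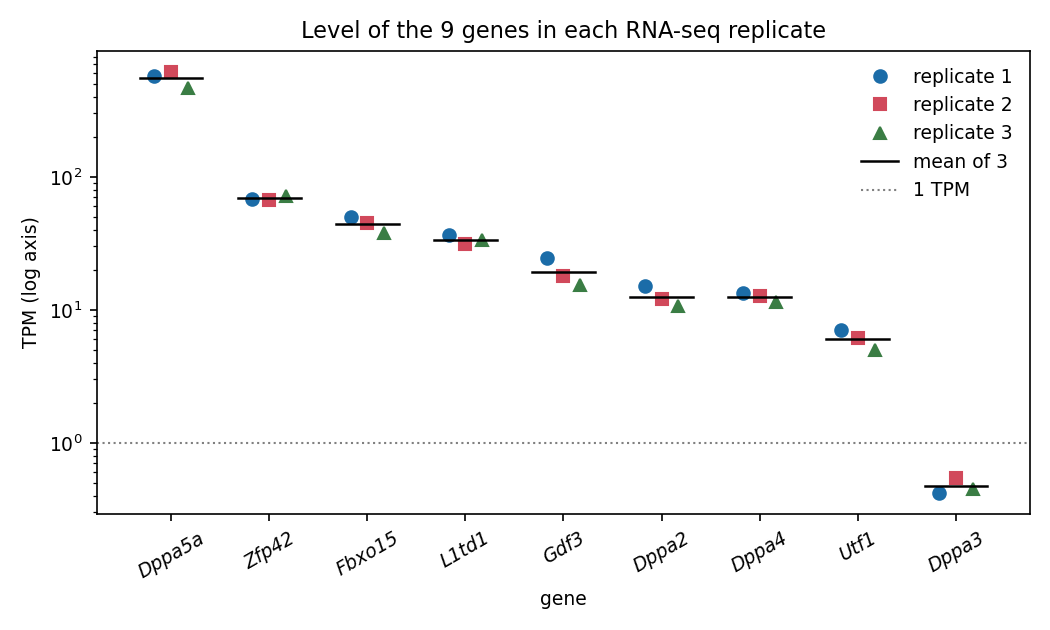
TPM of each gene (log axis) in RNA-seq replicates 1, 2 and 3, with the mean as a horizontal bar and 1 TPM as a dotted line. The genes run from Dppa5a at 554 TPM down to Dppa3 at 0.47 TPM, and only Dppa2 and Dppa4 among neighbours in this order overlap.

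Dppa5a and L1td1 encode RNA-binding proteins and include the highest of the set. Dppa5a (ENSMUSG00000060461, chromosome 9, 78367052 to 78368177, minus strand, GRCm38) encodes a small protein with a KH domain, an RNA-binding fold. It had 578, 617 and 467 TPM in replicates 1, 2 and 3, from 7551, 5525 and 4305 estimated counts. Its rank was 37 among the 9683 expressed protein-coding genes, so that 0.372% of them lay above it. L1td1 (ENSMUSG00000087166, chromosome 4, 98726734 to 98738480, plus strand) encodes an RNA-binding protein derived from the open reading frame 1 of a LINE-1 retrotransposon. It had 36.6, 31.4 and 33.3 TPM in replicates 1, 2 and 3, and ranked 819. In each replicate Dppa5a was above every other member, with a mean 8.05 times that of Zfp42, the next in order.

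The transcription and chromatin factors of the set all lay below Dppa5a, and Zfp42 was the highest of them. Zfp42 (ENSMUSG00000051176, chromosome 8, 43295063 to 43306980, minus strand) encodes a zinc finger protein related to YY1, from which it is thought to have arisen by retroposition. It had 68.2, 66.8 and 71.5 TPM in replicates 1, 2 and 3. Its mean of 68.8 ± 2.39 TPM (SD, n = 3) had a coefficient of variation of 3.47%, the smallest of the 9 in TPM. This ranking depended on the scaling: in CPM, Zfp42 was at 322 ± 60.04 (SD, n = 3), the widest relative spread of the 8 members other than Dppa3. Dppa4 (ENSMUSG00000058550, chromosome 16, 48283733 to 48294237, plus strand) had 13.5, 12.8 and 11.5 TPM in replicates 1, 2 and 3. Dppa2 (ENSMUSG00000072419, chromosome 16, 48303908 to 48319723, plus strand) had 15.1, 12.1 and 10.7 TPM in the same order, so the paralogs' ranges overlapped. Utf1 (ENSMUSG00000047751, chromosome 7, 139943789 to 139945112, plus strand), a chromatin-associated factor that binds promoters with Polycomb marks, had 7.04, 6.10 and 5.01 TPM. Utf1 lay below both Dppa2 and Dppa4 in every replicate and near the middle of expressed protein-coding genes, of which 48.0% were higher.

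Dppa3 (ENSMUSG00000046323, chromosome 6, 122626410 to 122630272, plus strand), also called Stella or PGC7, is a maternal factor that protects the early embryo's genome from loss of methylation and marks primordial germ cells. It had 8, 7 and 6 estimated counts in replicates 1, 2 and 3, which gave 0.42, 0.54 and 0.45 TPM. The counts were above the floor of 3 in every library. Exact Poisson 95% intervals, which cover counting error only, ran from 0.181 to 0.828 TPM in replicate 1, from 0.217 to 1.11 TPM in replicate 2 and from 0.165 to 0.979 TPM in replicate 3. The 3 intervals overlap, and their lower limits in replicates 2 and 3, 2.81 and 2.20 counts, were under the floor of 3. Overlap of intervals is not a test of a difference. With no filter beyond 1 count in some replicate, Dppa3 had an unadjusted p of 0.714 (edgeR goodness-of-fit test of variation between replicates). No difference between replicates was called for Dppa3 at this depth. Utf1, the next above it, was 12.9 times higher by mean TPM. In bulk RNA a low level in all cells and a higher level in a few cells cannot be told apart.

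The remaining genes encode a ubiquitin ligase component and a secreted ligand. Fbxo15 (ENSMUSG00000034391, chromosome 18, 84934782 to 84981473, plus strand) encodes an F-box protein, the substrate-binding part of an SCF ubiquitin ligase. It had 50.1, 45.1 and 38.0 TPM in replicates 1, 2 and 3, below Dppa5a and Zfp42 and above the rest. The gene Timm21 lies within Fbxo15 on the opposite strand, at 1.63 ± 0.33 TPM (SD, n = 3). The strand setting of the counting is not given in the sources used here, so reads of the overlap could belong to either. Estimated counts of both genes were whole numbers in every replicate, with no sign of reads divided between them. Gdf3 (ENSMUSG00000030117, chromosome 6, 122605403 to 122610087, minus strand) encodes a ligand of the TGF-beta superfamily that signals like Nodal. It had 24.3, 18.01 and 15.5 TPM, a coefficient of variation of 23.7%, the largest of the 9 in TPM. In CPM, Gdf3 was at 104 ± 6.58 (SD, n = 3), a smaller relative spread than that of Zfp42, L1td1, Dppa5a, Dppa4 and Dppa3. The median coefficient of variation in TPM over all expressed protein-coding genes was 23.8%.

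The order of levels was kept across replicates. Of the 36 pairs of members, 35 had the same order in every replicate, and the same 35 had TPM ranges that did not overlap. Among the 8 pairs of neighbours in the order, 7 did not overlap. The closest of these were Fbxo15 and L1td1, whose log2 ratio was 0.39 ± 0.18 (SD, n = 3), and Gdf3 and Dppa2, at 0.60 ± 0.08 (SD, n = 3). Exact permutation tests were not used on single pairs, because 3 values paired by library cannot give a two-sided p below 0.25. In CPM the means of Fbxo15 and L1td1 stood the other way round, at 196 ± 9.10 and 211 ± 31.4 CPM (SD, n = 3), with Fbxo15 higher in replicate 2 alone. L1td1 transcripts are longer, and CPM is not scaled to length.

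Dppa4 and Dppa2 were the pair without an order. The log2 ratio of Dppa2 to Dppa4 was 0.16, -0.09 and -0.11 in replicates 1, 2 and 3, with a mean of -0.01 ± 0.15 (SD, n = 3). Dppa2 was higher in replicate 1, and Dppa4 was higher in the other replicates, so without replicate 1 all 36 pairs kept 1 order. The mean difference was smaller than the spread between replicates. In CPM, which is not scaled by length, Dppa4 was lower than Dppa2 by 0.50 (log2, mean).

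Dppa2 and Dppa4 have further copies in the genome, as do Dppa3, Dppa5a and Zfp42, and these bear on the counts. Processed pseudogenes are copies of spliced transcripts that were inserted back into the genome in germ cells or early embryos, and a read that matches both gene and copy is divided between them by RSEM, the estimator named in the submitters' processing notes. The annotated transcripts were searched for stretches of at least 200 bases at 95% identity or more with a member. There were 13 such copies, of 5 members: 7 of Dppa5a, 2 each of Dppa2 and Dppa4, and 1 each of Dppa3 and Zfp42. Utf1, L1td1, Fbxo15 and Gdf3 had none. Of the 13 copies, 10 were annotated as processed pseudogenes. A second search used the longest transcript of each gene, with the same limits of identity and length. It found at least 1 processed pseudogene for 4 of the 8 members with a mean TPM of at least 1. The share was 8.92% of 9683 expressed protein-coding genes. This is a description of 8 genes, and no test was made.

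The following coding stretches of 60 bases, from the GENCODE transcripts of GRCm38 and 5′ to 3′ on the gene's strand, show how few bases separate a gene from its copies. For each gene the 60-base stretch within 1 coding exon that differed most was taken, among those aligned without gaps to the most copies, so other stretches are more alike. Capitals mark the bases that differ; in the line of a gene they mark a difference from any copy compared. For Dppa5a (chr9:78367769-78367828, exon 2) the closest and the most distant of 6 pseudogenes are shown, with 1 of the pair Dppa5b and Dppa5c, which are identical here.
Dppa5a: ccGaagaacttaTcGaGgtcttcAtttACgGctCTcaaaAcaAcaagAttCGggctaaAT
Gm15310: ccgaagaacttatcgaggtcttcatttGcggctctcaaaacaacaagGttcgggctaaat
Dppa5b: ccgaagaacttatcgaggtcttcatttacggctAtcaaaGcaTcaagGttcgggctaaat
Gm5250: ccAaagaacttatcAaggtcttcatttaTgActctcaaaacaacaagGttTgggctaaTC
For Zfp42 (chr8:43295802-43295861, exon 4) the copy is Zfp42-ps1, the pseudogene with the most counts.
Zfp42: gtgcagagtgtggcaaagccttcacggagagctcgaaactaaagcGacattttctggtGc
Zfp42-ps1: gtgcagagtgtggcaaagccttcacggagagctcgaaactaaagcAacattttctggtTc
For Dppa2 (chr16:48311636-48311695, exon 2) and Dppa4 (chr16:48291014-48291073, exon 5) the copies with counts above the floor are shown.
Dppa2: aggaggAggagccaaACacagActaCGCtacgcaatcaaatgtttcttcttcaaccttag
Gm9788: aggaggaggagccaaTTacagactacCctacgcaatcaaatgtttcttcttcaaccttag
Dppa4: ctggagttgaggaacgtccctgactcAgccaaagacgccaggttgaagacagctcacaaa
Gm14058: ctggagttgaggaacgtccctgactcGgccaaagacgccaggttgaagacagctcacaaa
For Dppa3 (chr6:122628606-122628665, exon 2) the copy is Dppa3-ps, on the X chromosome.
Dppa3: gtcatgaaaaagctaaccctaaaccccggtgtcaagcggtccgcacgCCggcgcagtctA
Dppa3-ps: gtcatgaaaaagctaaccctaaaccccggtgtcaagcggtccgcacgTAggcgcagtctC

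Positions counted from 1 at the 5′ end of each stretch give the differences. Gm15310 differed from Dppa5a at 2 bases (A28G and A48G), Dppa5b at 4 and Gm5250 at 8. The change A48G was present in each of the 6 Dppa5a pseudogenes compared. Zfp42-ps1 differed from Zfp42 by G46A and G59T, and Gm14058 from Dppa4 by A27G alone. Gm9788 differed from Dppa2 by A16T, C17T and G27C, and Dppa3-ps from Dppa3 by C48T, C49A and A60C.

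The estimated counts of the copies were small beside those of the genes. Zfp42-ps1 (ENSMUSG00000115993, chromosome 15, 93679160 to 93679649) had 249, 111 and 145 counts in replicates 1, 2 and 3, or 8.28%, 5.41% and 6.55% of the Zfp42 counts. Because the pseudogene is short, its 21.5 ± 4.49 TPM (SD, n = 3) was above the 19.3 ± 4.57 TPM (SD, n = 3) of Gdf3, although their values overlapped across replicates. Gm9788 (ENSMUSG00000044065, chromosome 19, 41459813 to 41460718) had 45.1, 43 and 39.7 counts. With Gm8023 these made 5.84%, 10.2% and 11.1% of the Dppa2 counts. The copies of Dppa4 held 3.20%, 2.60% and 5.17% of its counts, and Gm14058 accounted for most of them.

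The Dppa5a copies were of several kinds. Dppa5b and Dppa5c, unprocessed pseudogenes on chromosome 9 like Dppa5a, had identical estimated counts of 11.6, 6.06 and 3.65 in replicates 1, 2 and 3, so the 2 cannot be told apart. Pigp, a protein-coding gene of glycosylphosphatidylinositol synthesis on chromosome 16, matched Dppa5a over 417 bases at 95.9% identity. The processed pseudogene Gm15310 lies within Pigp on the same strand. Pigp had 187, 117 and 79 counts, the highest of the Dppa5a matches. All copies together, Pigp included, held 3.06%, 2.52% and 2.06% of the Dppa5a counts, and Pigp accounted for most of them in every replicate. The Pigp counts are those of the whole gene, beyond the stretch that matches Dppa5a, so these shares overstate the copies. No counts were assigned to Dppa3-ps in any library.

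The members also differed in the form of their counts, though not strictly by whether a copy was found, since Dppa3 has one. Estimated counts of Dppa3, Utf1, L1td1, Fbxo15 and Gdf3 were whole numbers (within 0.005) in every replicate. Those of Dppa2, Dppa4, Dppa5a and Zfp42 had fractions in at least 1 replicate, as did those of 16.8% of expressed protein-coding genes. Adding all counts of the copies, Pigp included, to the genes left 35 of 36 pairs in the same order in every replicate. It gave a log2 ratio of Dppa4 to Dppa2 of -0.06 (mean), still smaller than the spread between replicates.

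**Figure D2:**
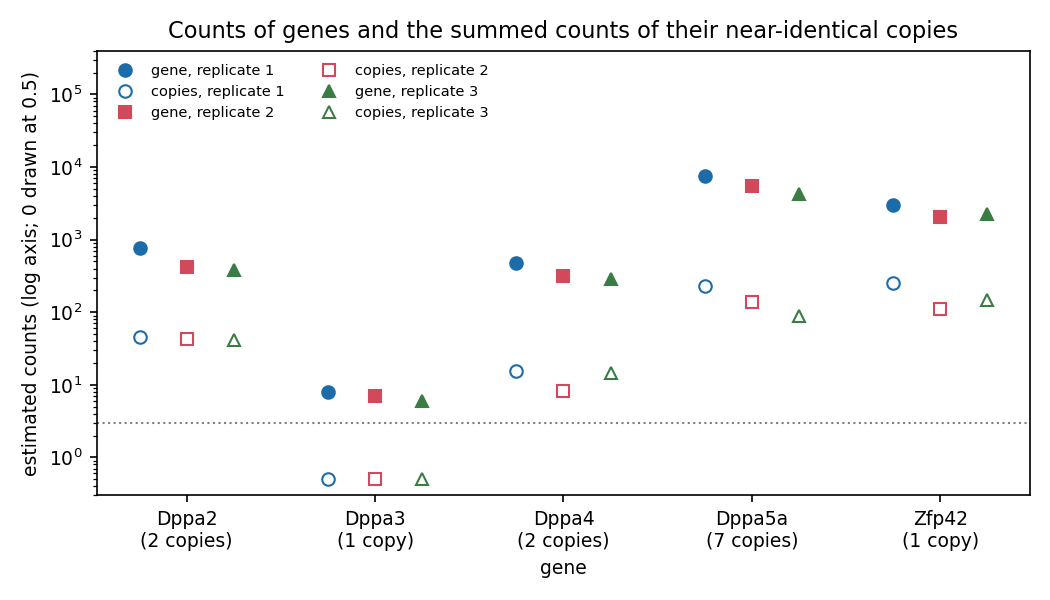
Estimated counts (log axis, 0 drawn at 0.5) of the 5 genes with near-identical copies (filled) and the summed counts of those copies (open) in each replicate, with the floor of 3 counts dotted. The copies of Dppa2, Dppa4, Dppa5a and Zfp42 lie well below the genes in every replicate, and the copy of Dppa3 is at 0. The sum for Dppa5a includes all counts of the protein-coding gene Pigp.

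The position of the genes was not used to choose them, yet several share a locus. Dppa4 and Dppa2 are neighbours in the same orientation on chromosome 16, with gene bodies 9671 bp apart. No other protein-coding gene within 100000 bp of either had counts: Gm5485 was at 0 in every replicate. Gdf3 and Dppa3 lie 16323 bp apart on chromosome 6 and are transcribed away from each other, in the same region as Nanog. Zfp42 had no protein-coding neighbour within 100000 bp.

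Levels along the chromosome 6 locus differed widely between adjacent protein-coding genes. Slc2a3, a glucose transporter gene, had 265 ± 73.7 TPM (SD, n = 3) and Nanog, a core pluripotency factor, 183 ± 29.9 TPM (SD, n = 3). Dppa3 stood between Nanog on one side and Gdf3, at 19.3 ± 4.57 TPM (SD, n = 3), on the other, with 0.47 TPM. Beyond Gdf3 lay Apobec1, a cytidine deaminase gene, with 5.26 ± 1.27 TPM (SD, n = 3). The Dppa3 values of 0.42 to 0.54 TPM did not overlap those of Gdf3 or Nanog in any replicate.

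Near Dppa5a lies Ooep, a gene of the same KH domain family known from the oocyte, with 15.7, 11.6 and 10.9 TPM in replicates 1, 2 and 3. The gap between the gene bodies is 7932 bp. Of 5 genes of the maternal complex to which Ooep belongs, 3 reached a mean TPM of 1: Ooep, Khdc3 at 5.69 ± 1.39 TPM and Tle6 at 3.40 ± 0.87 TPM (SD, n = 3). Nlrp5 and Padi6 were at or below 0.04 TPM. The 3 of 5 stood beside 44.1% of all protein-coding genes and were not tested against it. Over all members, 9 of 28 protein-coding neighbours within 100000 bp reached a mean TPM of 1, or 32.1% beside the 44.1% of all protein-coding genes. The share was 25.0% (3 of 12) within 50000 bp and 47.9% (23 of 48) within 200000 bp, so whether it lay below or above that of all protein-coding genes depended on the window.

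**Figure D3:**
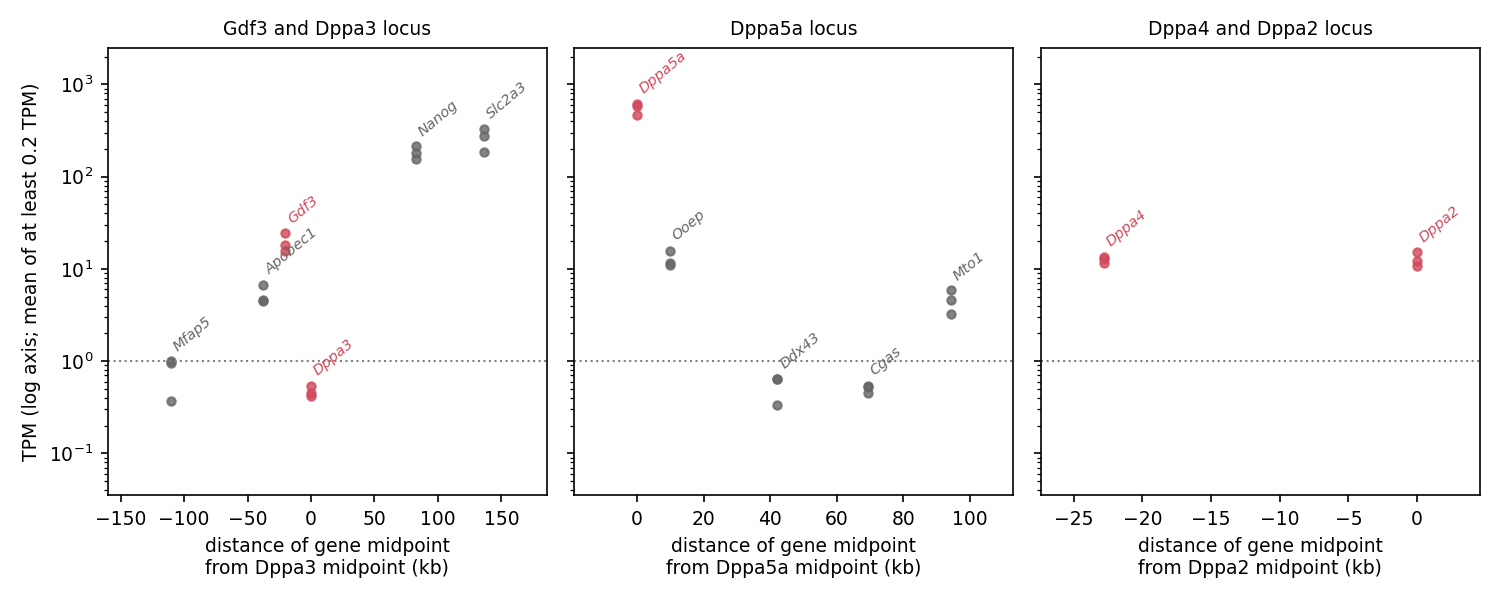
TPM (log axis) of protein-coding genes with a mean of at least 0.2 TPM within 100000 bp of Dppa3, Dppa5a and Dppa2, against the distance of gene midpoints in kb, with 1 point per replicate and the 9 genes in red. Dppa3 lies under 1 TPM between Gdf3 and Nanog, and Dppa5a is the highest gene of its locus, followed by Ooep.

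Variation between replicates was tested in one fit over all genes. Of the 12577 genes that passed the filter on low counts, 232 (1.84%) varied by more than genes of similar abundance at an adjusted p under 0.05 (edgeR goodness-of-fit test, Benjamini-Hochberg adjustment). The filter kept 8 of the 9 genes and left Dppa3 out. None of the 8 passed, and each had an adjusted p of 1 by edgeR. At an unadjusted p under 0.05 there were 0 of the 8 and 875 of all genes tested. The smallest unadjusted p-values by edgeR were 0.114 for Zfp42 and 0.193 for L1td1. With DESeq2 size factors in place of TMM, edgeR's scaling by trimmed means, 0 of the 8 passed, and without replicate 3, Dppa5a alone had an unadjusted p under 0.05 (edgeR, 0.0335; adjusted p 0.999). In simulated libraries of this depth the test recovered 1 of 50 genes changed 2-fold in 1 replicate and 44 of 50 changed 4-fold. It recovered 40 of 50 changed 8-fold and 38 of 50 changed 16-fold. Variation of the smaller size would mostly go undetected, and some large changes were missed too. The simulated counts passed through the same filter on low counts, which kept 12311 genes. Whether the filter removed the missed genes was not examined.

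The direction of the deviations was shared among the 8 genes in this scaling. In TMM-scaled CPM, all 8 tested members were above their own mean in replicate 3, where 50.4% of all genes were. Zfp42 had 252, 310 and 418 TMM-scaled CPM in replicates 1, 2 and 3, a deviation of 0.39 (log2) in replicate 3. L1td1 had 182, 191 and 270, a deviation of 0.35, and the other 6 deviated by 0.05 to 0.20. In replicate 1, 7 of the 8 were below their mean, with Gdf3 the exception. The count for replicate 3 was 6 of 8 after a correction for gene length and 3 of 8 in plain CPM, where 30.4% of all genes were above their mean. In TPM, 6 of the 9 genes were lowest in replicate 3, as were 75.6% of expressed genes, so the direction depends on the scaling.

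**Figure D4:**
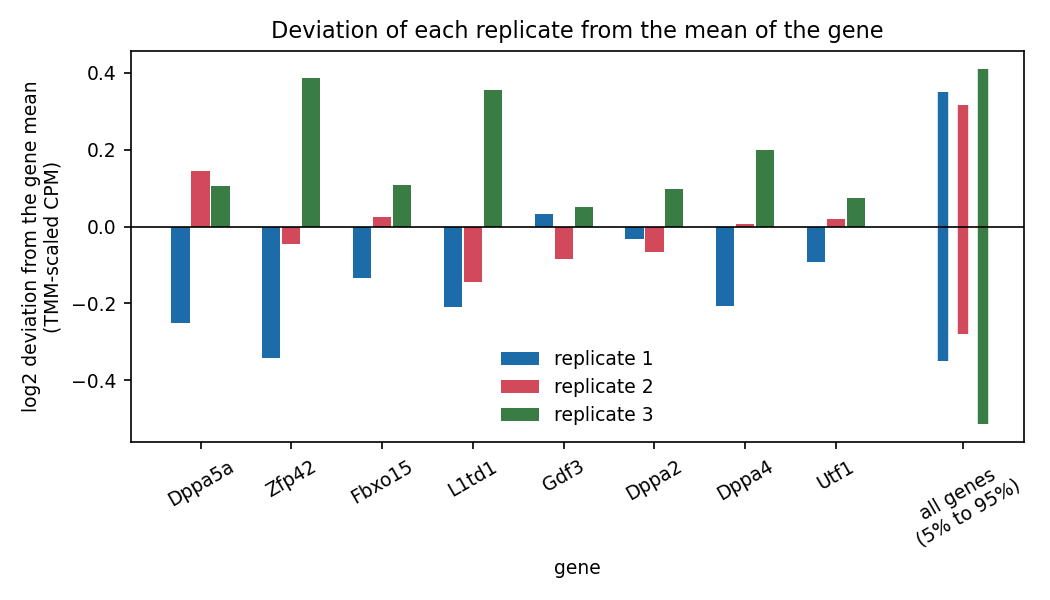
Bars give how far each replicate lies from the mean of its gene (log2, TMM-scaled CPM) for the 8 genes tested, beside the range from the 5th to the 95th percentile of all 12577 genes. All 8 bars of replicate 3 are above 0, up to 0.39 for Zfp42, and each lies within the range of all genes for that replicate.

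The deposited gene lengths, which RSEM averages over transcripts by their share, give each transcript's share where a gene has 2. Gdf3-201, of 2125 nt, made up 96.6% ± 0.96 (SD, n = 3) of Gdf3 transcripts, and the rest was Gdf3-202, of 427 nt, which is annotated without a coding sequence. For Dppa2, the longer transcript Dppa2-202 of 2447 nt made up 16.2%, 6.99% and 8.89% in replicates 1, 2 and 3, and Dppa2-201 of 1948 nt the remainder. All Dppa3 transcripts were assigned to Dppa3-201 in each replicate, although from 6 to 8 counts. Dppa5a and Utf1 have a single annotated transcript in the tables.

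The genes were set beside lists of genes that act with them, each described by its count at a mean TPM of 1 and without a test. Over all protein-coding genes, 44.1% reached this limit. The first list was that of the ECAT genes, a set of embryonic stem cell transcripts found together, which holds 6 of the 9 genes. All 11 ECAT genes reached a mean TPM of 1, and 10 of the 11 did without replicate 1. The 5 that are not among the 9 were Nanog at 183, Dnmt3l at 7.42, Tdrd12 at 3.91, Sox15 at 1.45 and Eras at 1.18 TPM. Eras, a constitutively active Ras-family protein, had 1.73, 1.36 and 0.45 TPM in replicates 1, 2 and 3, from 44, 24 and 8 counts. Dppa5a therefore had the highest mean TPM of the ECAT genes, above Nanog in every replicate. In estimated counts, which are not scaled to length, Nanog was above Dppa5a in every replicate. Nanog had 11989, 7094 and 6039 counts in replicates 1, 2 and 3, against 7551, 5525 and 4305 for Dppa5a.

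Genes of the 2-cell-like state were low. The factor encoded by Dux and the Zscan4 family mark 2-cell-like cells, a rare state in stem cell cultures that resembles the 2-cell embryo, and Dppa2 and Dppa4 are known to act upstream of Dux. None of the 13 genes on that list reached a mean TPM of 1, and 6 were at or under 3 counts in every replicate. Zscan4f was highest at 0.40 ± 0.22 TPM (SD, n = 3), from 29.9, 7.69 and 10.3 counts, and Duxf3, Tcstv1 and Tdpoz4 had 0 counts. The Zscan4 genes are near-identical copies of each other, so their separate values are uncertain. Their list summed to between 1.02 and 1.48 TPM per library, below Dppa2 or Dppa4 alone.

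Genes of DNA methylation stood above Dppa3. The Dppa3 protein restrains UHRF1, which directs the maintenance methyltransferase DNMT1 to replicated DNA. Uhrf1 had 37.3 ± 8.87 TPM and Dnmt1 14.5 ± 4.36 TPM (SD, n = 3), each far above Dppa3. All 8 genes of the methylation list reached a mean TPM of 1, from Tet3 at 1.09 to Tet1 at 47.2 TPM. Without replicate 1, 7 of these 8 did. Of the 8 germ cell genes, 5 reached a mean TPM of 1, beside 44.1% of all protein-coding genes. These were Ifitm3 at 48.1, Kit at 17.5, Dazl at 14.7, Tfap2c at 4.08 and Ddx4 at 1.03 TPM. Prdm1, Dnd1 and Nanos3 were at 0.97, 0.94 and 0.86 TPM, just under that limit.

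Gdf3 acts on activin receptors with the co-receptor Cripto, encoded by Tdgf1. Of 12 genes of this pathway, 10 reached a mean TPM of 1. Tdgf1 was highest at 331 ± 101 TPM (SD, n = 3), and the inhibitor Lefty2 had 25.0 ± 5.48 TPM (SD, n = 3). Among the ligands, Gdf3 at 19.3 TPM was above Nodal at 6.61 ± 1.51 TPM (SD, n = 3) in every replicate. Gdf1 had counts in replicate 1 alone. The receptor genes Acvr1b, Acvr2b and Acvr2a had 3.64, 2.12 and 1.54 TPM, and Acvr1c had 0 counts.

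Partners of the other members were measured in the same way. The 3 SCF genes that build the ligase with an F-box protein all reached a mean TPM of 1: Skp1a at 72.0, Cul1 at 18.8 and Rbx1 at 13.8 TPM. Fbxo15 at 44.4 TPM lay between Skp1a and Cul1 in every replicate. Of the YY1 family, Yy1 had 8.89 ± 1.85 TPM and Yy2 0.35 ± 0.19 TPM (SD, n = 3), both below Zfp42 in every replicate.

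**Figure D5:**
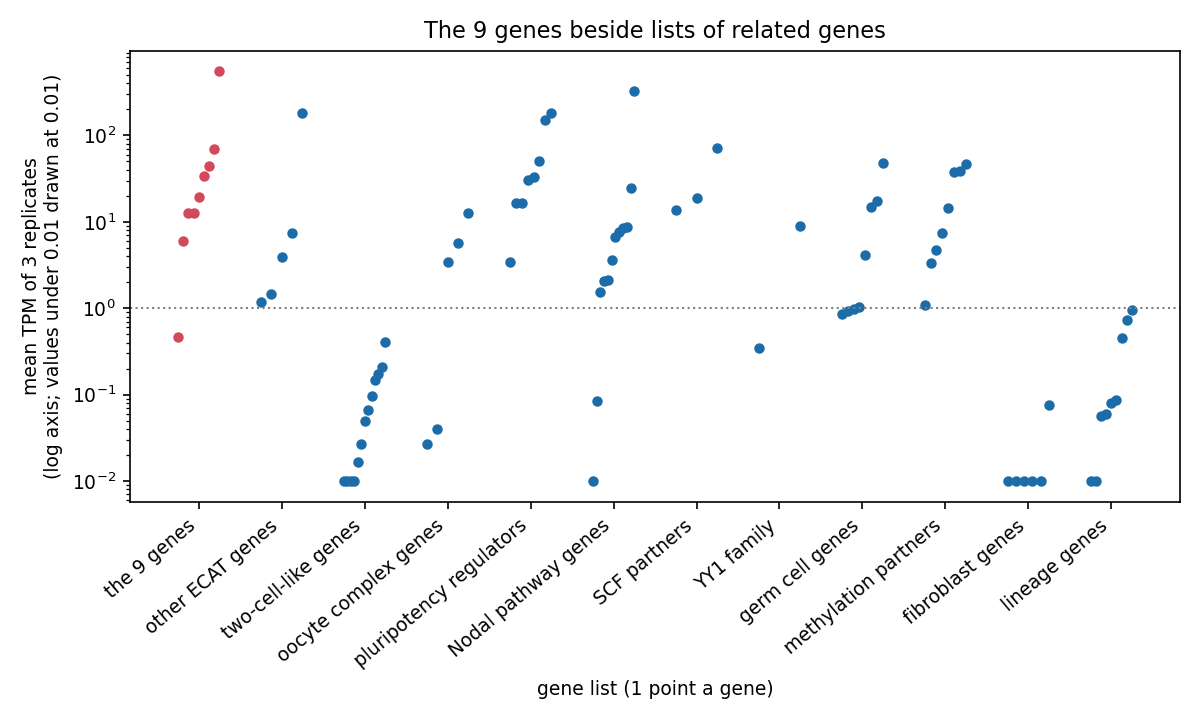
Mean TPM of 3 replicates (log axis, values under 0.01 drawn at 0.01) of the 9 genes and of each list of related genes, with 1 point a gene and 1 TPM dotted. Pluripotency regulators, SCF partners and methylation partners lie at or above 1 TPM, while 2-cell-like, fibroblast and lineage genes all lie below it.

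For each member, the protein-coding gene outside the lists with the most similar log2(TPM + 1) over the 3 replicates was sought among 21889 genes. The nearest to Dppa5a was the ribosomal protein gene Rps25, with 667, 599 and 510 TPM, and no gene lay within 0.1 (log2) of Dppa5a in every replicate. Dppa2 was nearest to Ktn1 and Dppa4 to Dse, with 59 and 25 genes within 0.1 in every replicate. Zfp42 was nearest to the histone gene Hist1h2bp, L1td1 to St13, Fbxo15 to Ddx3x, Gdf3 to Ddx47, Utf1 to Wrb and Dppa3 to Ceacam10. This likeness is one of level in 3 replicates of 1 cell line.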

How the data were processed

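The series has 10 samples of E14 cells. The 3 RNA-seq replicates were analysed, with replicate numbers taken from the sample titles. The labels' protocols give Trizol extraction, DNase, removal of ribosomal RNA and a directional library kit. The submitters' processing notes name STAR, RSEM and mm10. Aligner settings, annotation release and strand setting are not given in the sources used here. Per the file headers, the authors deposited an estimated count (expected count), TPM and FPKM for each gene, and its length and effective length in nt, another value per gene deposited by the authors. FPKM was not used.

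The members and lists were chosen with earlier results of these data known. Names and coordinates came from GENCODE vM21 (GRCm38), which matched 55227 of 55487 IDs. Named genes are the 9 members, the listed genes, protein-coding genes within 100000 bp of a member, the nearest gene by level and the copies; Timm21 overlaps Fbxo15. The value of 1 neighbour is not reported here. Means and SDs are over 3 replicates. Counts were rounded for edgeR 4.0.16 (R 4.3.3; intercept-only design, TMM, filterByExpr, trended dispersion, goodness-of-fit test), tested on simulated data. Copies came from blastn 2.17.0 on the plus strand. Alternatives changed the TPM denominator, length scaling, pseudocount, filters, DESeq2 1.42.0 size factors, windows, identity and replicates. Protein sequences were not used here, so the planned protein comparison was not made.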

Additional observations from a re-analysis of the deposited data

How the results depend on the processing

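Of 138 alternatives of 20 results, 113 stayed within the allowed spread or within 1.5 times a count, and 25 moved the value. Changes of sign were not scored apart from these. The mean log2 ratio of Dppa4 to Dppa2, 0.01 as planned, turned negative with CPM, per kilobase of full length, without replicate 2 or 3, and with copies added. Without replicate 1 it was 0.10. The means of single genes were recomputed under 72 further alternatives. Those that add the counts of the copies, or leave out a replicate for the neighbours, were chosen after seeing the data. The median of the 9 genes, 4.32, became 5.72 with short genes left out of the TPM denominator and 6.84 with nuclear protein-coding genes alone in it. It became 6.71 with CPM and 5.57 per kilobase of full length. The changes of denominator raise every gene. CPM and counts per kilobase shift weight between genes of different length and do not raise all of them. Expressed genes were higher by 1.45, 2.58, 2.41 and 1.29 (log2, median) in the same order. With CPM the range from Dppa5a to Dppa3 was 9.66 (log2) and Dppa4 against Dppa2 was -0.50. Most expressed genes were higher on these scales, so a limit of 1 was easier to pass. All 9 genes passed it in each but CPM, where 8 did. In the same order of 4 scalings, germ cell genes numbered 8, 8, 8 and 8 and lineage genes 3, 3, 3 and 3, and 2-cell-like genes numbered 1, 3 and 2 in the first 3. YY1 family genes numbered 2 with the protein-coding denominator and with CPM, and 1 fibroblast gene passed with CPM. Over the alternatives that each left out a replicate, lineage genes numbered 0 to 1 and germ cell genes 4 to 7. Without replicate 1, ECAT genes numbered 10 and methylation partners 7. Expressed neighbours numbered 3 of 12 within 50000 bp and 23 of 48 within 200000 bp, and copies 22 at 90% identity and 2 at 99%. Depth limits Dppa3 most, at 6 to 8 counts.

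No paired analysis was possible because 1 group alone was analysed, which leaves no second group to pair it with.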
